A study of Bos taurus with 8 samples.

Results

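The genes described here encode the subunits of oxidative phosphorylation, measured in rumen papillae of dairy cows fed diets with little or much concentrate. They were taken as every non-control probe whose RefSeq accession matched a bovine reference symbol for a subunit of complexes I to V, with the assembly factors named NDUFAF left out. Of 89 such genes in the reference, 68 had a probe matched in this way and 21 did not, and the 68 genes stand among 7788 genes named on the array. They comprise 34 genes of complex I (NADH dehydrogenase), 4 of complex II (succinate dehydrogenase), 6 of complex III (the cytochrome bc1 complex), 11 of complex IV (cytochrome c oxidase) and 13 of complex V (ATP synthase). Each gene had a single probe, and the scanner software called all 68 well above background on each of the 8 arrays, so no member was lost to a filter on dim probes. Among the 21 genes without a matched probe are COX5A, COX5B, COX6A1, COX6B1, COX6C and COX7C of complex IV, UQCRC2 and UQCRB of complex III and ATP5F1C of complex V. NDUFA4 and its paralog NDUFA4L2 carry complex I names but are counted with complex IV, where the NDUFA4 protein is found.

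Complexes I and II pass electrons from NADH and succinate to ubiquinone, complex III passes them on to cytochrome c, and complex IV reduces oxygen with them. Complexes I, III and IV pump protons across the inner mitochondrial membrane, and complex V uses the returning protons to make ATP. Rumen papillae absorb the short-chain fatty acids made by microbial fermentation, and their epithelium oxidizes butyrate and makes ketone bodies in its mitochondria. The subunits encoded by mitochondrial DNA are no part of the rule and were not analysed here.

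The study asked how a diet rich in concentrate alters gene expression in the rumen wall. Female Holstein cows fitted with a rumen cannula were studied, 4 in number, and each was fed the LC diet (40% concentrate) and the HC diet (70% concentrate) in a crossover over 2 periods. Papillae were taken on day 21 of each period, 4 h after the morning feeding, and the RNA of each sample was hybridized to its own one-colour Agilent bovine array, which gave 4 arrays per diet. Cows 1 and 2 received the LC diet in period 1 and the HC diet in period 2, and cows 3 and 4 the reverse; every slide held arrays of 1 period, so period and slide cannot be told apart, and the contrast of cows 1 and 2 with cows 3 and 4 is the same contrast as the diet by period interaction.

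The arrays were alike in quality, with 76.9 to 81.2% of probes well above background, 0 to 13 flagged spots and no saturated spot. Of 12 markers fixed for the rumen epithelium, 8 had a named probe and 7 of these were above background on every array, with only TP63 below it on every array. Of 6 striated muscle markers with a probe, CKM and MYH7 were above background on all 8 arrays, MYL1 on 4, and ACTA1, MYH1 and MYH2 on none, whereas all 7 smooth muscle markers and all 6 fibroblast markers were above it on all 8. Papillae are mixed tissue, and in such bulk samples fewer cells of a type and less RNA per cell cannot be told apart.

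Levels are given as log2 signal after quantile normalization. They are compared within a gene, except for probes of like signal and for sums over a list of markers. Such a sum is weighted toward its brightest probes. No member passed the study's threshold for diet, a change of at least 1.5-fold with an unadjusted p under 0.05. The share was 0.922% of all 21475 probes and 0.274% of the 16030 probes above background on all 8 arrays. At the latter share, 0 of 68 is no result about the members. By the unadjusted p alone 0 of 68 members were called, against 3.65% of all probes and 2.61% of those above background throughout. That p uses a variance drawn toward a value shared by all probes, a standard deviation of 0.18. The median standard deviation of the members over the 8 arrays was lower, at 0.107, so the count of 0 depends in part on this sharing. The fit was made with limma on all probes at once, with diet, period and their interaction as terms, and the Benjamini-Hochberg adjusted p for diet was at least 0.9995 for every member. It has no cow term, so its diet p, standard errors and intervals do not use the pairing of arrays by cow. The count of 0 thus does not show that no gene moved within cows. Of the 68 genes, 26 were higher and 42 lower in the HC group than in the LC group, with a median log2 difference of -0.01 and a range from -0.20 for COX6B2 to 0.24 for COX4I2. Among all 21475 probes 10735 were higher in the HC group, and their median difference was -0.00.

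The intervals give the size of diet differences that these 8 arrays leave possible. The 95% interval of the diet difference lay within 1.5-fold in either direction for 66 of 68 members, or 97.1%, against 68.1% of all probes and 79.0% of the 16030 probes that were above background throughout. From its centre to either end, the median interval of the members spanned 0.24 log2 units, which is 1.18-fold. The exceptions were COX4I2, with an interval from -0.24 to 0.73, and NDUFA4L2, with one from -0.58 to 0.89. For the other 66 genes a change of 1.5-fold or more lay outside the interval, while smaller differences in either direction remained inside it.

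**Figure D1:**
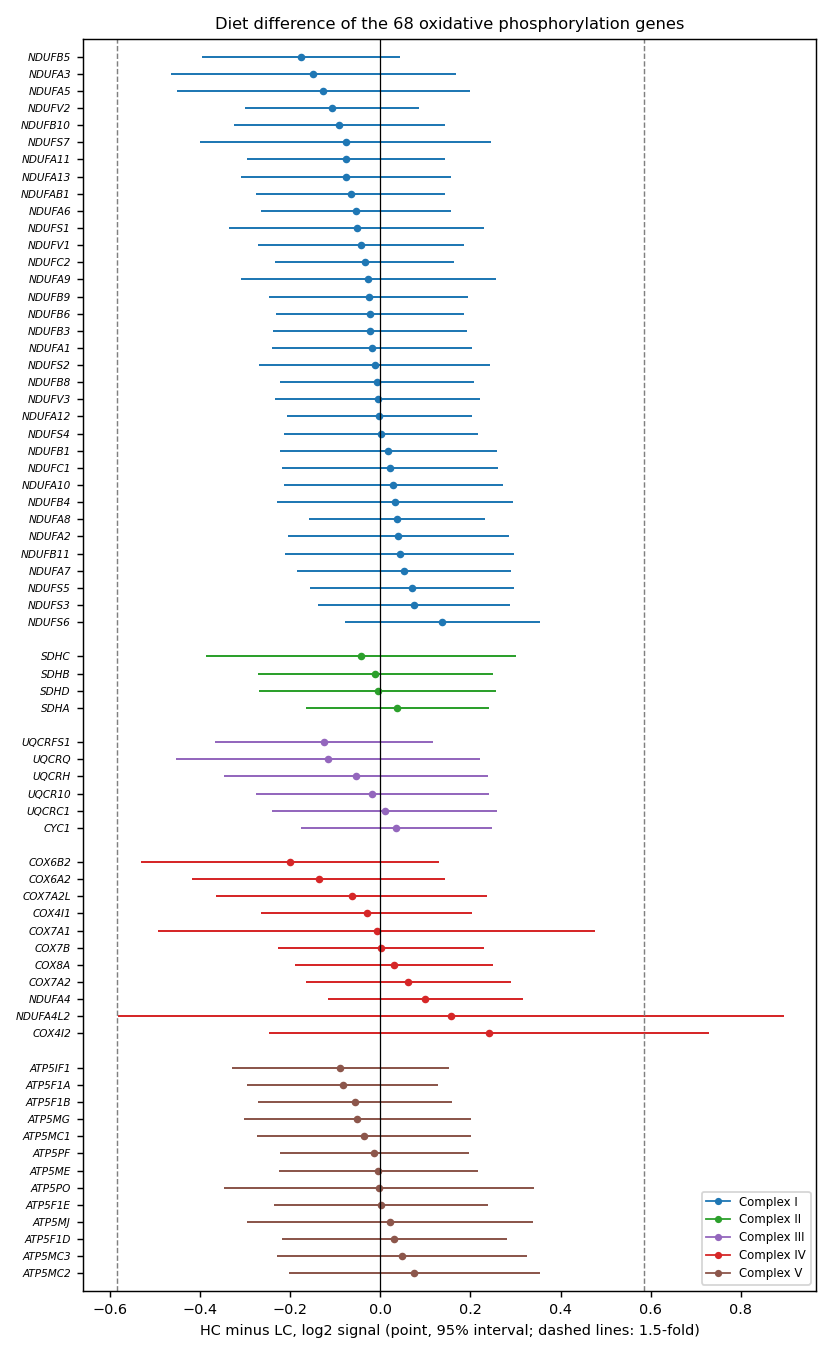
The log2 difference between the HC and LC groups (x axis, HC minus LC) for each of the 68 genes, grouped and coloured by complex, with points for the estimate, bars for the 95% interval and dashed lines at 1.5-fold. Every interval, with the variance shared over probes by limma, crosses 0, and those of COX4I2 and NDUFA4L2 reach beyond the dashed line on the right.

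Complex I was represented by 6 of its core subunits and 28 accessory subunits. The core subunits carry the flavin, the iron-sulphur clusters and the quinone site, and 1 of 6 was higher and 5 were lower in the HC group, with differences from -0.11 for NDUFV2 to 0.08 for NDUFS3. Of the accessory subunits 11 were higher and 17 lower, from -0.18 for NDUFB5 to 0.14 for NDUFS6. None of these 34 genes passed the test.

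NDUFV2, an iron-sulphur subunit of the NADH-oxidizing tip, was the single member whose groups did not overlap, against 1.6% of all probes. Its log2 signal was 15.26, 15.25, 15.31 and 15.28 in cows 1 to 4 on the LC diet and 15.15, 15.20, 15.15 and 15.17 on the HC diet. Each cow was thus lower on the HC diet, by 0.05 to 0.16 log2 units. The difference was -0.11 with a standard error of 0.08, and the limma p was 0.221 unadjusted and 1.00 adjusted. NDUFV2 was named after its values were seen, and its partner in the same module, the flavin subunit NDUFV1, had a difference of -0.04 with overlapping groups.

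NDUFB5, an accessory subunit of the membrane arm, had the smallest unadjusted diet p of the members. It measured 12.75, 12.70, 12.62 and 12.84 in cows 1 to 4 on the LC diet and 12.47, 12.46, 12.62 and 12.65 on the HC diet. Cows 1, 2 and 4 were lower on the HC diet by 0.19 to 0.28, while cow 3 was almost level. The groups overlapped, since cow 4 on the HC diet (12.65) lay above cow 3 on the LC diet (12.62). The difference of -0.18 with a standard error of 0.09 had an unadjusted limma p of 0.0941.

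NDUFS6, a zinc-binding accessory subunit, had the highest difference in complex I. Its signal was 11.99, 12.03, 12.44 and 12.32 in cows 1 to 4 on the LC diet and 12.42, 12.26, 12.35 and 12.30 on the HC diet. Cows 1 and 2 were higher on the HC diet by 0.44 and 0.23, whereas cows 3 and 4 were lower by less than 0.1, and the difference of 0.14 with a standard error of 0.09 did not pass. NDUFA3, a small membrane subunit with the second lowest difference in complex I, lay at 14.05 to 14.52 on the LC diet and 13.96 to 14.24 on the HC diet, with a difference of -0.15 and a standard error of 0.13.

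Over the whole set, 8 of 68 members, or 11.8%, had the same direction in all 4 cows, against 11% of all probes. NDUFS5 of complex I and COX4I2 of complex IV were higher on the HC diet in each cow. NDUFA3, NDUFB5, NDUFB10 and NDUFV2 of complex I and UQCRH and UQCRQ of complex III were lower on the HC diet in each cow. The share of members was near that of all probes, and in 6 of the 8 genes the cow with the smallest difference was within 0.03 log2 units of no change.

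**Figure D2:**
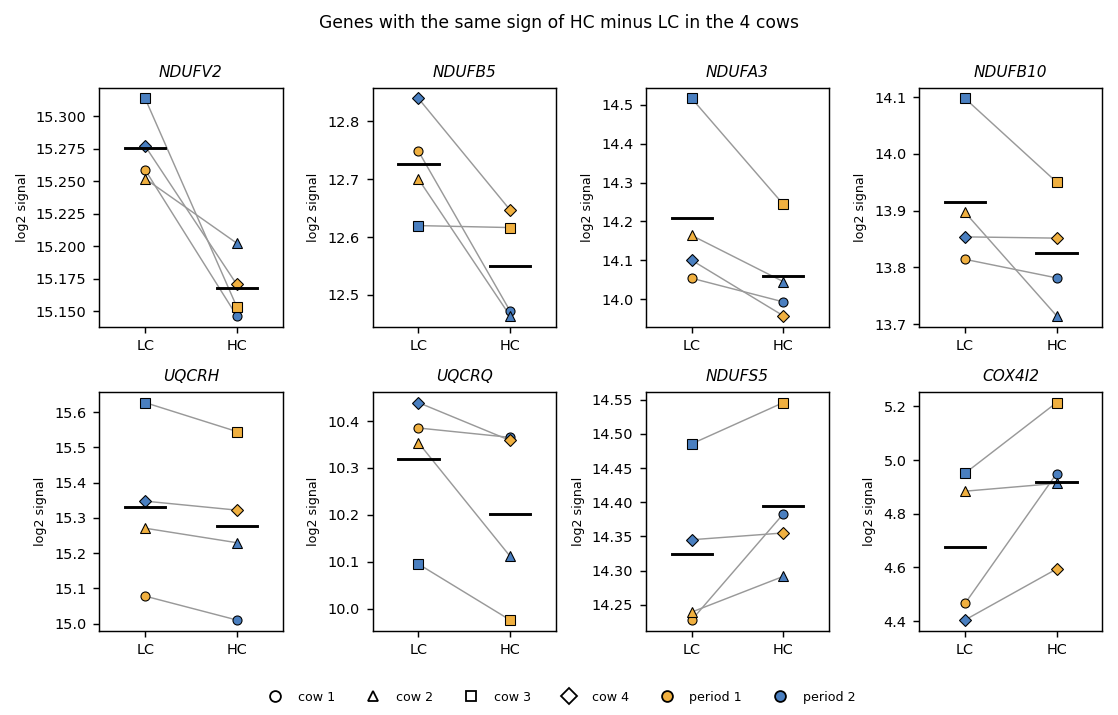
Log2 signal (y axis, scaled separately for each gene) on the LC and HC diets for the 8 genes with the same direction in all 4 cows; symbols are cows, colours are periods, thin lines join the arrays of a cow and thick bars are group means. Only NDUFV2 has groups that do not overlap.

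Within single cows, differences of 1.5-fold or more were found in 6 of the paired values, all of them in complex IV. They fell on 3 of 68 members, or 4.41%. Such a difference in at least 1 cow was found in 33.8% of all probes and 22.3% of those above background throughout. They belonged to COX6A2 in cows 1, 2 and 4, to COX7A1 in cow 4 and to NDUFA4L2 in cows 2 and 4. Cow 1 had 42 members higher and 26 lower on the HC diet, with a median of 0.02, whereas cows 2, 3 and 4 had 24 to 27 members higher and medians from -0.06 to -0.02. Of all 21475 probes, 52.5% were higher on the HC diet in cow 1 and 48.1 to 51.0% in the other cows.

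Complex II also works in the citric acid cycle, and its 4 subunits had differences between -0.04 and 0.04. SDHA, the flavin subunit that oxidizes succinate, was the steadiest of all members, with a standard deviation of 0.043 over the 8 arrays. It measured 15.43, 15.43, 15.42 and 15.44 on the LC diet and 15.52, 15.41, 15.52 and 15.43 on the HC diet. With the variance shared over probes, the difference of 0.04 had a standard error of 0.08 and a 95% interval from -0.16 to 0.24. The iron-sulphur subunit SDHB had a difference of -0.01 and the membrane anchors SDHC and SDHD had differences of -0.04 and -0.01, and the groups overlapped for each of them.

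In complex III, 2 genes were higher and 4 lower in the HC group, with a median of -0.04. UQCRFS1, the Rieske iron-sulphur protein, had the lowest value, measuring 12.82, 12.83, 12.45 and 12.75 in cows 1 to 4 on the LC diet and 12.62, 12.59, 12.54 and 12.60 on the HC diet. Cow 3 went the other way from cows 1, 2 and 4, and the difference of -0.13 with a standard error of 0.10 did not pass. CYC1, the cytochrome c1 subunit, had the highest value in this complex at 0.03 with a standard error of 0.09. UQCRC1, a core protein, was at 0.01, and the small subunit UQCRQ was at -0.12 with a standard error of 0.14.

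The 4 members with the largest spread over the arrays were all in complex IV, and its 5 common subunits COX4I1, COX7A2, COX7B, COX8A and NDUFA4 had differences from -0.03 to 0.10, and 4 of the 5 were higher in the HC group. NDUFA4 measured 12.85, 12.72, 12.99 and 12.92 in cows 1 to 4 on the LC diet and 12.98, 13.02, 12.86 and 13.01 on the HC diet. Its groups overlapped, and the difference of 0.10 had a standard error of 0.09.

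The tissue isoforms and paralogs of complex IV varied most. COX4I2, the isoform of subunit 4 known from lung and from low oxygen, measured 4.47, 4.88, 4.95 and 4.40 in cows 1 to 4 on the LC diet and 4.95, 4.91, 5.21 and 4.59 on the HC diet. Every cow was higher on the HC diet, cow 2 by only 0.03 and cow 1 by 0.48, and the groups overlapped. The difference of 0.24 with a standard error of 0.20 did not pass. COX4I1, the common isoform, was at -0.03 with a standard error of 0.10.

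NDUFA4L2, a paralog of NDUFA4 that is induced by hypoxia in many cells, had the largest spread of all members. It measured 10.28, 9.18, 9.40 and 9.23 on the LC diet and 9.84, 9.82, 9.05 and 10.01 on the HC diet. Cows 2 and 4 were higher on the HC diet by 0.64 and 0.78, and cows 1 and 3 were lower by 0.44 and 0.35. Its standard deviation over the 8 arrays was 0.446, at the 95.2 percentile among probes of like signal, within 0.5 log2 units.

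COX7A1, the heart and skeletal muscle isoform of subunit 7A, measured 10.57, 10.53, 10.99 and 10.28 on the LC diet and 10.49, 10.22, 10.55 and 11.07 on the HC diet. Cow 4 alone was higher on the HC diet, by 0.79, and the difference over the 4 cows was -0.01 with a standard error of 0.20. The summed signal of the 7 smooth muscle markers was 14.37 in log2 units on that array of cow 4, the lowest of the 8 arrays, which ran from 14.37 to 14.84. On the same array the sums of the rumen epithelium markers (19.45), the leukocyte markers (13.26) and the 1 endothelial marker with a probe (9.63) were the highest of the 8. The striated muscle sum was 7.64 there, within a range of 7.09 to 8.07, and the fibroblast and erythrocyte sums were not at an extreme. The part of other cell types was not tested. COX7A2, the common counterpart of COX7A1, was at 0.06 with a standard error of 0.09. COX6B2, the testis isoform of subunit 6B, was lower on the HC diet in cows 1, 2 and 3 and higher in cow 4, with a difference of -0.20 and a standard error of 0.14.

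**Figure D3:**
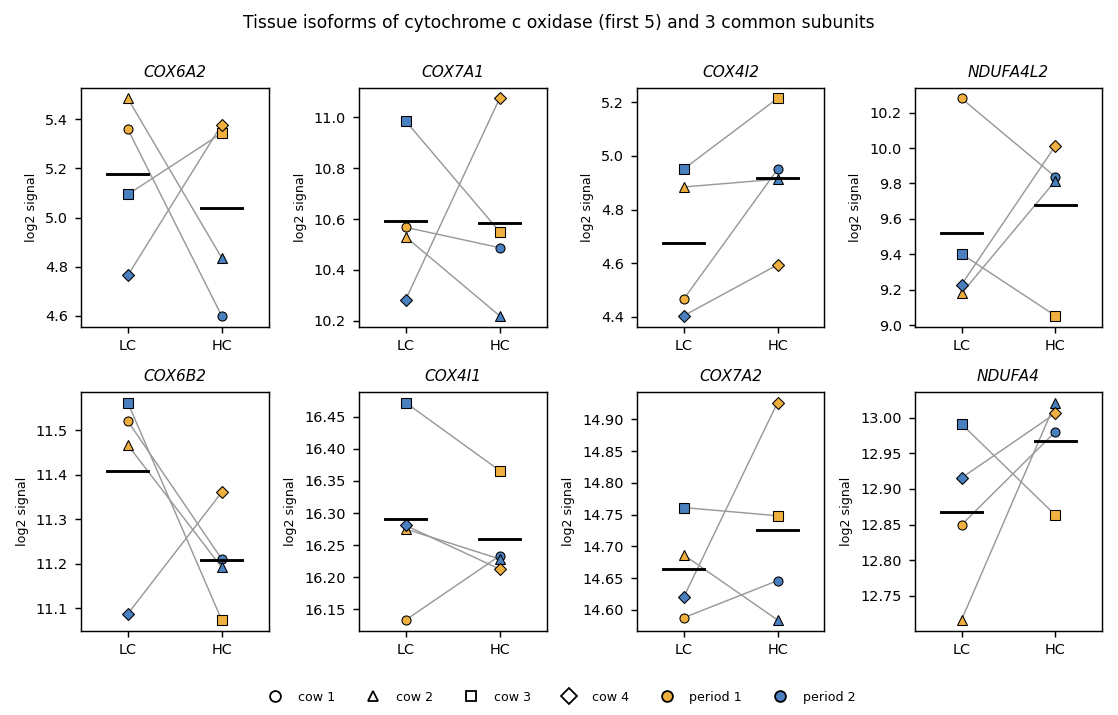
Log2 signal (y axis, scaled separately for each gene) on the LC and HC diets for COX6A2, COX7A1, COX4I2, NDUFA4L2 and COX6B2, and for the common subunits COX4I1, COX7A2 and NDUFA4; symbols are cows, colours are periods and thick bars are group means. For COX6A2 the 4 arrays of period 1 lie above the 4 arrays of period 2, in both diets.

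In complex V, 5 genes were higher and 8 lower in the HC group, with differences from -0.09 to 0.08. ATP5F1A and ATP5F1B, the subunits of the catalytic head, were at -0.08 and -0.06, with standard errors of 0.09. The 3 genes for the identical c-ring subunit, ATP5MC1, ATP5MC2 and ATP5MC3, were at -0.04, 0.08 and 0.05, with standard errors from 0.10 to 0.11. ATP5IF1, the inhibitor that stops the enzyme from splitting ATP when the membrane potential falls, measured 14.85, 14.71, 14.77 and 15.04 on the LC diet and 14.75, 14.73, 14.76 and 14.78 on the HC diet. It had the lowest value of this complex, -0.09 with a standard error of 0.10, and its groups overlapped.

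The median standard deviation over the 8 arrays was 0.107 for the members and 0.203 for the 16030 probes above background throughout, and 61 of 68 members lay below the latter. Most members were bright, and bright probes vary less, so the comparison was repeated within bands of signal. For a mean log2 signal of 12 to 14 the median was 0.116 over 25 members and 0.152 over 1315 probes, and at 14 and over it was 0.102 over 33 members and 0.143 over 478 probes. In the dimmer bands, which held 10 members, the order was the other way. It was 0.178 over 6 members and 0.162 over 2966 probes at 10 to 12, 0.284 over 2 members and 0.182 over 3720 probes at 8 to 10, and 0.307 over 2 members and 0.273 over 3909 probes under 6. These medians are a description, and no test was made of their difference.

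**Figure D4:**
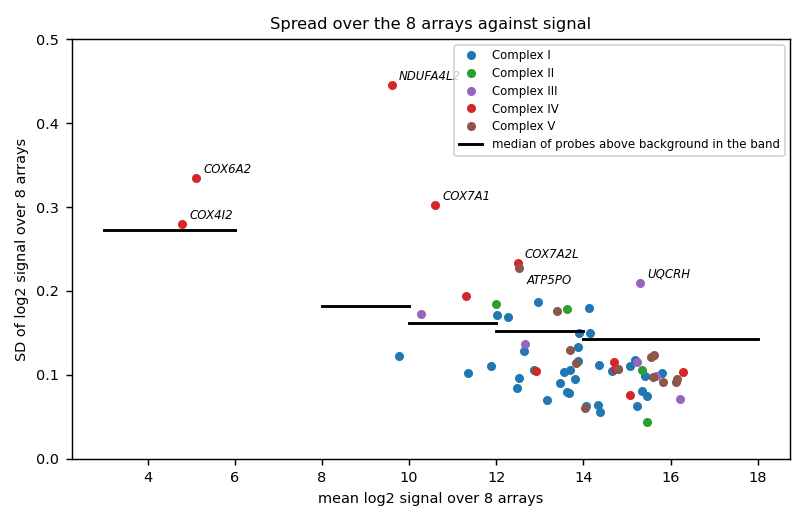
The standard deviation of the log2 signal over the 8 arrays (y axis) against the mean log2 signal (x axis) for the 68 genes, coloured by complex; black lines are medians of all probes well above background in the same band of signal. NDUFA4L2 stands highest at 0.446, and most genes above a signal of 12 lie below the line.

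Between the periods, 0 of 68 members passed the threshold of 1.5-fold and unadjusted p. The share was 3.86% of all probes and 1.95% of the 16030 probes above background throughout. By the unadjusted p alone 1 member was called, COX6A2, or 1.47%, against 12.3% of all probes. Bright probes, which most members have, were called less often than that. The share was 1.42% of the 141 probes within 0.5 log2 units of UQCRH and 2.42% of the 869 within 0.5 of COX7A2L. The low count is therefore no result about the members. COX6A2, the heart and skeletal muscle isoform of subunit 6A, was lower in period 2. In period 1 it measured 5.36 and 5.48 in cows 1 and 2 on the LC diet and 5.34 and 5.38 in cows 3 and 4 on the HC diet. In period 2 it measured 4.60 and 4.84 in cows 1 and 2 on the HC diet and 5.09 and 4.76 in cows 3 and 4 on the LC diet. The periods did not overlap, and each cow moved with the period whichever diet it was fed. The difference was -0.57, with a limma p of 0.00233 unadjusted and 0.144 after Benjamini-Hochberg adjustment, and the unadjusted p stayed at or below 0.0109 whichever array was left out.

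COX6A2 had a dim probe, and among the 1672 probes within 0.5 log2 units of its signal 21.2% had an unadjusted period p under 0.05. The difference was -0.16 when the background was corrected by normexp and -0.71 after 75th percentile scaling. Among striated muscle markers, CKM, muscle creatine kinase, was lower in period 2 by a difference of -0.35 (limma p of 0.0272 unadjusted, 0.327 adjusted), MYL1, a fast-muscle myosin light chain that was above background on only 4 arrays, had a difference of -0.74 (limma p of 0.00543 unadjusted, 0.190 adjusted), and MYH7, slow myosin heavy chain, had a difference of 0.00. The summed signal of the 6 striated muscle markers with a probe ran from 7.46 to 7.90 in period 1 and from 7.09 to 8.07 in period 2. That sum mostly follows MYH7, which was at 7.86 on the array where the sum was 8.07, and says little of CKM or MYL1. The part of dim signal, slide or other cell types in the COX6A2 difference was not tested. The other 67 members differed between periods by less than 0.2 log2 units.

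Between cows 1 and 2 and cows 3 and 4, 0 of 68 members passed the threshold of 1.5-fold and unadjusted p. The share was 2.93% of all probes and 2.03% of those above background throughout. By the unadjusted p alone 4 members were called, against 10.2% of all probes, and all 4 were lower in cows 1 and 2. These were NDUFS4, SDHD, UQCRH and COX7A2L, 1 gene each of complexes I to IV, and their limma adjusted p was at least 0.394. Since this contrast is also the diet by period interaction, it cannot be told apart from a diet effect that differed between the periods.

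NDUFS4, an accessory subunit that stabilizes the NADH-oxidizing tip of complex I, measured 11.78 and 11.99 on the LC diet and 11.88 and 11.85 on the HC diet in cows 1 and 2. In cows 3 and 4 it measured 12.15 and 12.18 on the LC diet and 12.19 and 12.19 on the HC diet. The pairs of cows did not overlap, and the difference was -0.30 with a standard error of 0.09. SDHD, a membrane anchor of complex II, ran from 11.67 to 11.98 in cows 1 and 2 and from 11.998 to 12.20 in cows 3 and 4, with a difference of -0.28 and a standard error of 0.11.

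UQCRH, the hinge protein of complex III, measured 15.08, 15.27, 15.63 and 15.35 in cows 1 to 4 on the LC diet and 15.01, 15.23, 15.55 and 15.32 on the HC diet. The order of the cows was the same on both diets, and cows 1 and 2 were lower than cows 3 and 4 by a difference of -0.31 with a standard error of 0.12. COX7A2L, which helps complexes III and IV join into supercomplexes, measured 12.16, 12.51, 12.75 and 12.67 on the LC diet and 12.16, 12.41, 12.72 and 12.54 on the HC diet. Its difference was -0.36 with a standard error of 0.12, and again the order of the cows was the same on both diets.

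That fit counts the 2 arrays of a cow as separate. With the arrays of each cow averaged first, limma gave unadjusted p values of 0.0483 for NDUFS4, 0.0793 for COX7A2L, 0.0923 for SDHD and 0.108 for UQCRH, with an adjusted p of 0.817 for each. The unadjusted limma p of the 4 genes ran from 0.0511 to 0.124 without the LC array of cow 1, so none was called. Without the HC array of cow 1 or either array of cow 3, NDUFS4 alone was called, and SDHD missed 0.05 when cow 4 lacked its LC array (0.0662) and when cow 2 lacked its HC array (0.0715). After 75th percentile scaling the unadjusted p was 0.0595 for SDHD and 0.0677 for UQCRH. The difference of each gene kept its sign in all of these fits. Of all 68 members 46 were lower in cows 1 and 2, with a median difference of -0.07, while among all 21475 probes 10909 were lower. Among the markers, ACTG2, a smooth muscle actin, was higher in cows 1 and 2 by 0.51 (limma p of 0.0407 unadjusted). The summed signal of the smooth muscle markers ran from 14.57 to 14.84 in cows 1 and 2 and from 14.37 to 14.62 in cows 3 and 4, and its part in the result was not tested. Relative to each gene's mean, the median member was at -0.03 and -0.02 on the LC arrays and -0.03 and -0.06 on the HC arrays of cows 1 and 2, and at 0.07 and 0.03 on the LC arrays and 0.02 and 0.02 on the HC arrays of cows 3 and 4. After 75th percentile scaling this pattern broke, with 0.06 for cow 2 on the LC diet and -0.04 for cow 4 on the LC diet.

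An F test for any difference among the 4 cows, beside diet and period, called 3 members at an unadjusted p under 0.05, against 16.3% of all probes, and 0 at an adjusted p under 0.05, against 0.158%. The 3 members were UQCRH, COX7A2L and ATP5PO, a stalk subunit of complex V, and their adjusted p was at least 0.260. ATP5PO measured 12.26, 12.40, 12.96 and 12.46 in cows 1 to 4 on the LC diet and 12.40, 12.43, 12.76 and 12.47 on the HC diet, so cow 3 was the highest on both. In 5 members, or 7.35%, the cows stood in the same order on both diets, against 6.8% of all probes. For SDHD, UQCRH, COX7A2L and ATP5PO that order was cows 1, 2, 4 and 3 from low to high, and for NDUFS7 it was cows 4, 1, 2 and 3.

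**Figure D5:**
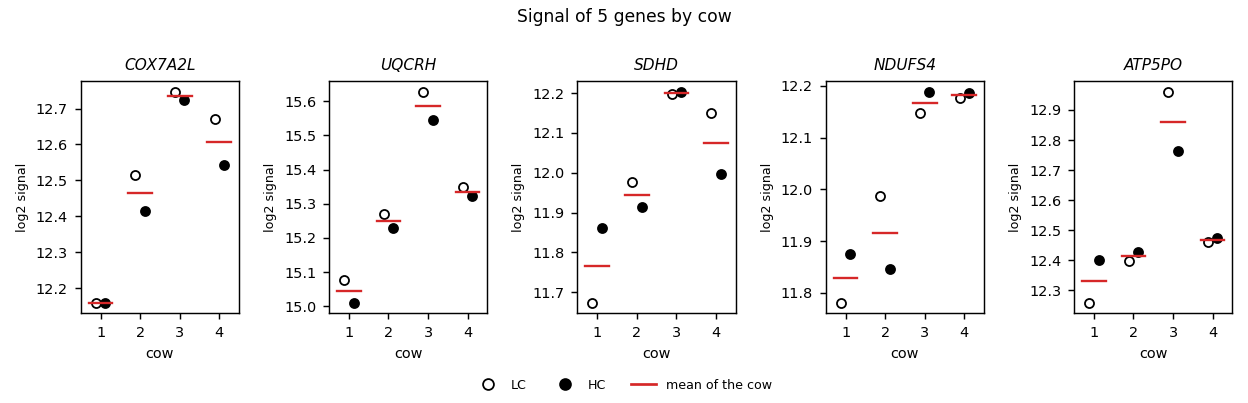
Log2 signal (y axis, scaled separately for each gene) of COX7A2L, UQCRH, SDHD, NDUFS4 and ATP5PO in each of the 4 cows (x axis); open circles are LC arrays, filled circles HC arrays and red lines the mean of the cow. For the first 4 genes both arrays of cows 1 and 2 lie below those of cows 3 and 4.

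Other genes of mitochondrial energy metabolism were read from the same fit. Of 98 listed genes 54 had a named probe, but NDUFAF genes entered the 98 only if they had one. Of these 54, 53 were above background on every array. Among the 53, 23 were higher and 30 lower in the HC group, with a median difference of -0.01, and 0 had an unadjusted limma diet p under 0.05. Among 21 assembly factors of the complexes the differences ran from -0.20 for NDUFAF4 to 0.18 for FOXRED1, both factors of complex I. The 10 genes of the citric acid cycle ran from -0.08 for PDHA1, which feeds the cycle from pyruvate, to 0.17 for IDH3B, with citrate synthase (CS) at -0.02. Of the 7 regulators 5 were higher and 2 lower, with a median of 0.02. GABPB1, a subunit of nuclear respiratory factor 2, was highest at 0.17, while PPARGC1A, a coactivator of mitochondrial biogenesis, was at -0.06, NRF1 at 0.03 and ESRRA at -0.11. Among transport genes the outer membrane channel VDAC3 was lowest at -0.19 and VDAC1 was at -0.05.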

How the data were processed

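Rumen papilla RNA was measured on 8 one-colour arrays, 4 per diet. Per the file headers, the authors extracted Cy3 intensity with Feature Extraction 10.7.3.1, which subtracted background and removed spatial trends; they normalized by quantiles in GeneSpring, and the deposited table of log2 values served as an alternative. Here flagged spots were set to missing, log2 of the processed intensity was quantile normalized over non-control spots, and spots of a probe were averaged (R 4.3.3, limma 3.58.1). Of 21475 probes, 10176 carried a RefSeq accession and 8297 were named through the reference table, whose build was not used for positions. The terms were diet, period and their interaction, as in the study, with eBayes moderation (4 residual and 2.26 prior degrees of freedom); Benjamini-Hochberg adjustment ran over all probes. The limma fit was checked on simulated arrays drawn independently, with no cow effect. That check does not cover the pairing of arrays by cow. Precision was limited by the number of arrays.

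The cow number pairs the arrays, since each cow gave both; deviations from the diet means correlated by 0.113 to 0.467 within cows. The members and lists were chosen with earlier results of these data known. Genes were named by rule: past the threshold, the 2 highest and 2 lowest diet differences per complex, the isoform groups, ATP5IF1, and for period and interaction the 3 largest changes with unadjusted p under 0.05; the others were named after their values were seen. Alternatives were 75th percentile scaling, normexp (offset 50; on median spot intensity, used in place of the planned mean), the deposited table, a filter on dim probes, gene means, cow as a block, other model terms and moderation, and each array left out. The planned exact permutation test over arrays ignores that each cow gave 2 of them, and its p values are not printed. P values measure the spread between these samples, drawn toward a variance shared by all probes. In the main fit they leave out the pairing by cow. No promoter, probe or protein sequence was analysed here.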

Additional observations from a re-analysis of the deposited data

Results flagged for a closer look

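Among the 58 groups of 4 arrays tested for a value far from the others, 4 were flagged, and chance flags about 1 in 20 groups. ATP5MC3, a gene of the c-ring subunit of complex V, was at 15.72 in cow 1 on the HC diet, with the nearest of the other HC arrays at 15.53. COX4I1, the common isoform of subunit 4 of complex IV, was at 16.37 in cow 3 on the HC diet, with the nearest at 16.23. In cow 3 on the LC diet, the iron-sulphur subunit SDHB was at 15.49, with the nearest LC array at 15.31, and the membrane anchor SDHC was at 13.48, with the nearest at 13.68.

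The diet by period contrast, which is the contrast of cows 1 and 2 with cows 3 and 4, had an unadjusted limma p under 0.05 for 4 members. That is 5.88% of the members, against 10.2% of all probes. The log2 difference was -0.30 for NDUFS4, -0.28 for SDHD, -0.31 for UQCRH and -0.36 for COX7A2L, and the smallest adjusted p was 0.394.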

How the results depend on the processing

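By the unadjusted p alone, members were counted for diet in the main fit only. The alternatives of model terms, cow blocks and moderation leave the diet estimates unchanged, and all of these were under 1.5-fold. In those alternatives the fold cut alone therefore sets the count of members past the diet threshold at 0, whatever the p. That count was 0 under every alternative run. With cow as a replicate block and period as a term it was also 0, and 65 members kept a diet interval within 1.5-fold; with cow as a random block, which pairs the arrays without a fixed term, the unadjusted interaction p of SDHD was 0.0592 in place of 0.0383, while the unadjusted calls of COX6A2 for period and of NDUFS4, UQCRH and COX7A2L for interaction were kept in the blocked fits that could estimate them. Over all alternatives that interval count, added after the data were seen, ran from 64 to 67, and the median diet difference ran from -0.03 to -0.00. Of the 29 genes named by rule 13 kept their sign in all 20 settings. By the standard deviation of a gene's 4 within-cow differences, 17 gene values moved by more than that and 563 did not. The dim filter, gene means, cow blocks, model terms and moderation cannot change a diet estimate in this balanced design with 1 probe per gene. Their values are among the 563 and say nothing of stability. Only the scaling, background, deposited and left-out-array settings could move a value. The count past the period threshold was 1 after 75th percentile scaling, 1 by the unadjusted p alone, and 0 to 1 when arrays were left out in turn, with 1 without cow 1 or cow 3 on the LC diet and without cow 2 on the HC diet; that member was COX6A2. By the unadjusted p alone, 4 members were called for the interaction, against 10.2% of all probes, and the share of all probes called for period was 12.3%. The cow F test, added after the data were seen, called 3 members in the main fit, against 16.3% of all probes. It called 1 member after 75th percentile scaling, 12 after normexp and 6 with a variance trend and robust prior, and the cause was not tested. The share of all probes called was not counted in those 3 settings, so their counts are not a result about the members. Of the 544 deposited log2 values of members, 15 lay within 0.005 of the average that the remaining 3 arrays of that diet gave. The number of arrays and the dim signal of COX6A2 and COX4I2 limit what can be seen.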
